A study of Mus musculus with 2 samples.

Results

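The genes described here are the mouse fibroblast growth factors (Fgf), their receptors and binding proteins, and the feedback inhibitors and Etv transcription factors that FGF signalling is known to switch on. They were chosen by name, as the protein-coding genes called Fgf or Fgfr with a number, Fgfrl1, the Fgfbp, Spry and Spred genes, Dusp6, and Etv1, Etv4 and Etv5. The rule found 40 genes among 22028 protein-coding and 55536 annotated genes: 15 paracrine and 3 endocrine-subfamily ligands, 4 intracellular homologous factors, 4 receptor kinases, 1 receptor without a kinase, 2 binding proteins, 8 feedback inhibitors and 3 Etv factors. Polyadenylated RNA of embryonic midbrain was sequenced in 2 libraries that form 1 group. Both came from healthy B6NCrl mice with no transgene or treatment given in the labels, male and female embryos pooled, at 12.5 days of gestation. Replicate 1 was a pool of 120 embryos and replicate 2 a pool of 88. From 10 ng of RNA per library, oligo-dT primed the cDNA, Nextera tagmentation cut it, and ERCC control RNAs were added. No condition was contrasted, so the comparisons are between genes within the tissue and between the 2 pools, and each pool averages over embryos of both sexes.

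FGF ligands bind receptor tyrosine kinases together with heparan sulfate, and the receptors signal through the docking protein Frs2 to the Ras and ERK cascade. ERK activity switches on Etv transcription factors and the inhibitors Spry, Spred and Dusp6, which damp the same cascade. In the embryonic brain Fgf8, Fgf17 and Fgf18 are made at the isthmus, the signalling centre at the border of midbrain and hindbrain, where FGF8 is needed for the midbrain and cerebellum to form.

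Expected counts of annotated genes were 29056772 in replicate 1 and 37122519 in replicate 2. Levels are TPM (transcript abundance scaled for length and depth) with mean ± SD over n = 2 libraries, and positions refer to mm10. The midbrain label was checked on 8 midbrain and isthmus markers, of which 7 reached 1 TPM in both libraries, with Otx2 at 144.6 and 140.9 TPM and Pax2 the exception at 0.25 TPM in each. Their summed level was 246 TPM in replicate 1 and 285 TPM in replicate 2. All 8 mesenchyme markers were present and summed to 920 TPM in replicate 1 and 1303 TPM in replicate 2. All 8 forebrain markers were present too, and summed to 159 TPM in replicate 1 and 130 TPM in replicate 2, whereas Gbx2, at 29.9 and 23.3 TPM, was the only one of 6 cerebellum and hindbrain markers to pass 1 TPM in both. Of that list Atoh1 had 0.69 TPM in replicate 1 and 2.06 TPM in replicate 2, Ptf1a had 0.34 and 1.38 TPM, and Hoxa2, Hoxb1 and Egr2 stayed at or below 0.20 TPM. In such bulk RNA fewer cells of a type and less RNA per cell cannot be told apart.

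Of the 40 genes, 25 were at 1 TPM or more in both libraries (62.5%), against 59.4% of all protein-coding genes. The median level was 3.04 TPM, and 4.47 TPM over all protein-coding genes. Detection differed by role. The 3 receptor kinases Fgfr1, Fgfr2 and Fgfr3, all 4 homologous factors, all 8 feedback inhibitors and all 3 Etv factors passed 1 TPM, but only 5 of the 18 secreted ligands did. In order of level the highest were Fgfr2 (75.6 ± 0.0778 TPM), Fgf15 (63.7 ± 12.6), Fgfr3 (59.7 ± 11.0), Fgfr1 (50.9 ± 3.71), Fgfbp3 (41.1 ± 2.24) and Fgf13 (32.5 ± 1.47). As a gene total Fgfr2 lay above all the others in both libraries. Fgf15 lay above Fgfr3 in both too, with 72.6 against 67.5 TPM in replicate 1 and 54.8 against 51.9 TPM in replicate 2. Fgfr3 was above Fgfr1 in replicate 1 (67.5 against 48.3 TPM) and below it in replicate 2 (51.9 against 53.5 TPM). Below Fgf13 came Spry2, Dusp6, Spred1, Fgfrl1 and Etv1, between 19.1 and 11.4 TPM on average. The order of Spry2 and Dusp6 differed between the libraries, as did that of Spred1 and Fgfrl1.

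**Figure D1:**
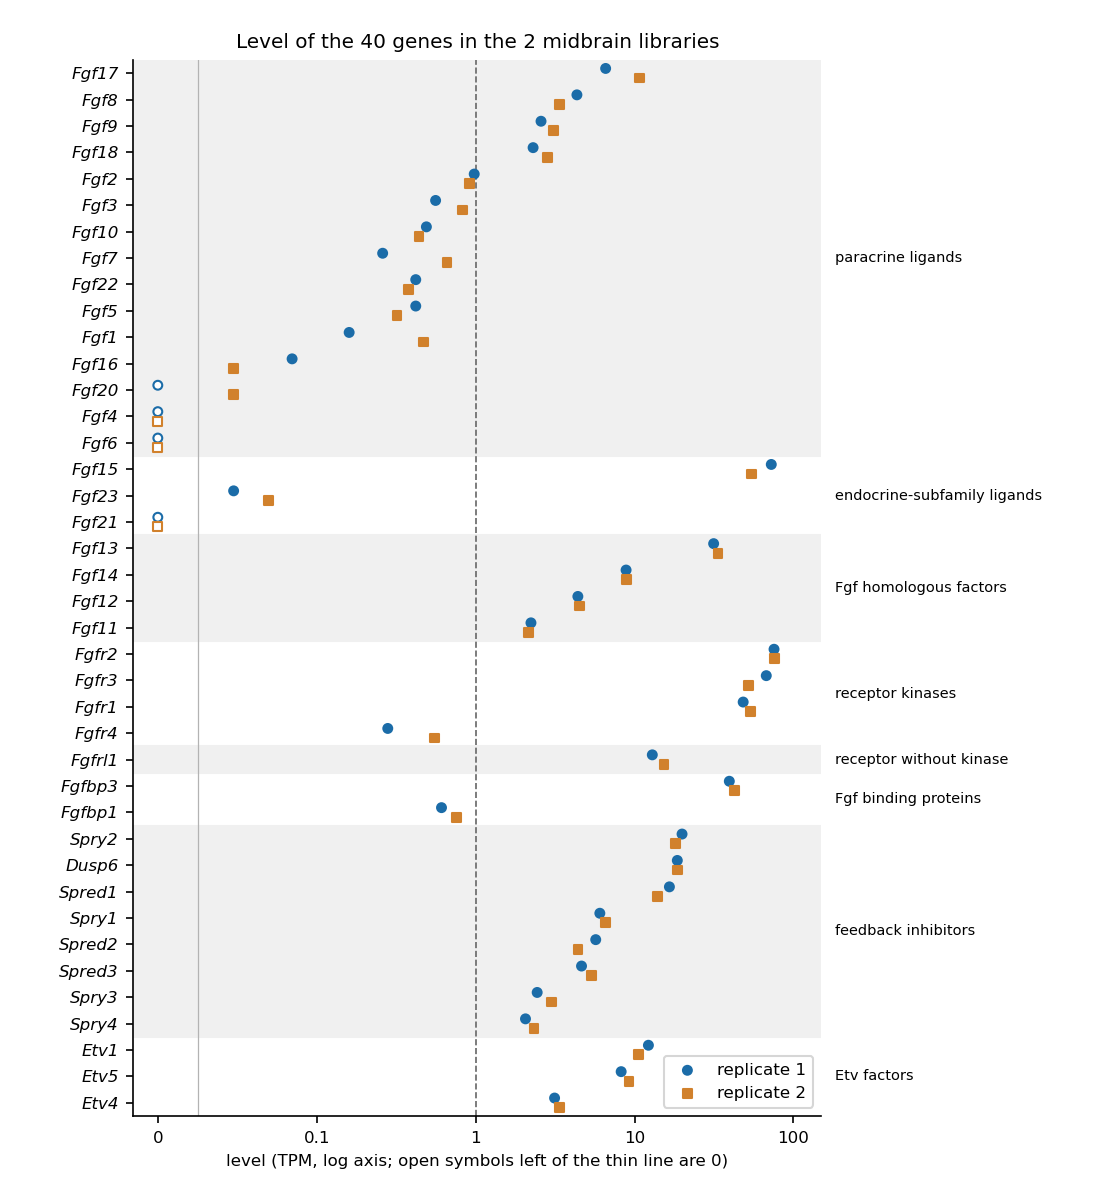
Level of each of the 40 genes in TPM on a log axis, grouped by role, with replicate 1 as blue circles and replicate 2 as orange squares; the dashed line marks 1 TPM and open symbols mark a level of 0. Fgfr1, Fgfr2, Fgfr3 and Fgf15 lie between 48.3 and 75.6 TPM, while 13 of 18 secreted ligands lie left of the dashed line.

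To compare the pools, counts were scaled between libraries (TMM, a trimmed-mean scaling) and expressed as the log2 ratio of replicate 1 over replicate 2. The exact 95% interval covers counting error only. It treats every read as independent, although the reads carry no molecular identifiers. With 1 library per pool no p-value was computed. Of the 40 genes 33 had at least 10 counts in a library. Fgf7 and Fgfr4 were at least 2-fold apart with an interval that left out equality, both higher in replicate 2. Over all 19885 genes that passed the same filter the share was 4.23%, of which 1.78% higher in replicate 1 and 2.45% in replicate 2. At a 1.5-fold limit 5 genes were apart, against 7.19% of all genes (2.83% higher in replicate 1 and 4.36% in replicate 2): Fgf8 was higher in replicate 1, and Fgf2, Fgf7, Fgf17 and Fgfr4 in replicate 2. Of these 5 all but Fgfr4 are ligands, and none is a feedback inhibitor or an Etv factor. Every inhibitor and Etv factor had 50 counts or more in a library. Of all 15158 genes with 50 counts or more, 229 were 1.5-fold higher in replicate 1 and 479 in replicate 2. None among so few genes is near that share. The interval left out equality for 15 genes, 7 of them higher in replicate 1 and 8 in replicate 2, against 32.3% of all genes (15.5% and 16.7% in the same order). Once the interval was widened by the spread between the pools over all genes (a common dispersion of 0.00892), 7 genes were left, against 7.79% of all genes. These were Fgf8, Fgf15 and Fgfr3, higher in replicate 1, and Fgf2, Fgf7, Fgf17 and Fgfr4, higher in replicate 2. Among the 26 genes that reached 50 counts in either library, the median absolute log2 ratio was 0.21. It was 0.10 over all genes that reached 50 counts. These had a higher median level, 18.1 TPM against 8.7 TPM for the 26, so the comparison is not matched for counting error. Scaling by the ERCC spike-ins lowered every log2 ratio by 0.27, moved the median over all genes by as much, and turned the sign for 8 of the 33: Fgf10, Fgf11, Fgf12, Fgf14, Fgfr2, Spry2, Spred1 and Dusp6. Under that scaling the interval lay above equality for 2 genes, Fgf15 and Fgfr3, and below it for 18. No share over all genes was computed under ERCC scaling, so neither count can be read as particular to these genes.

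**Figure D2:**
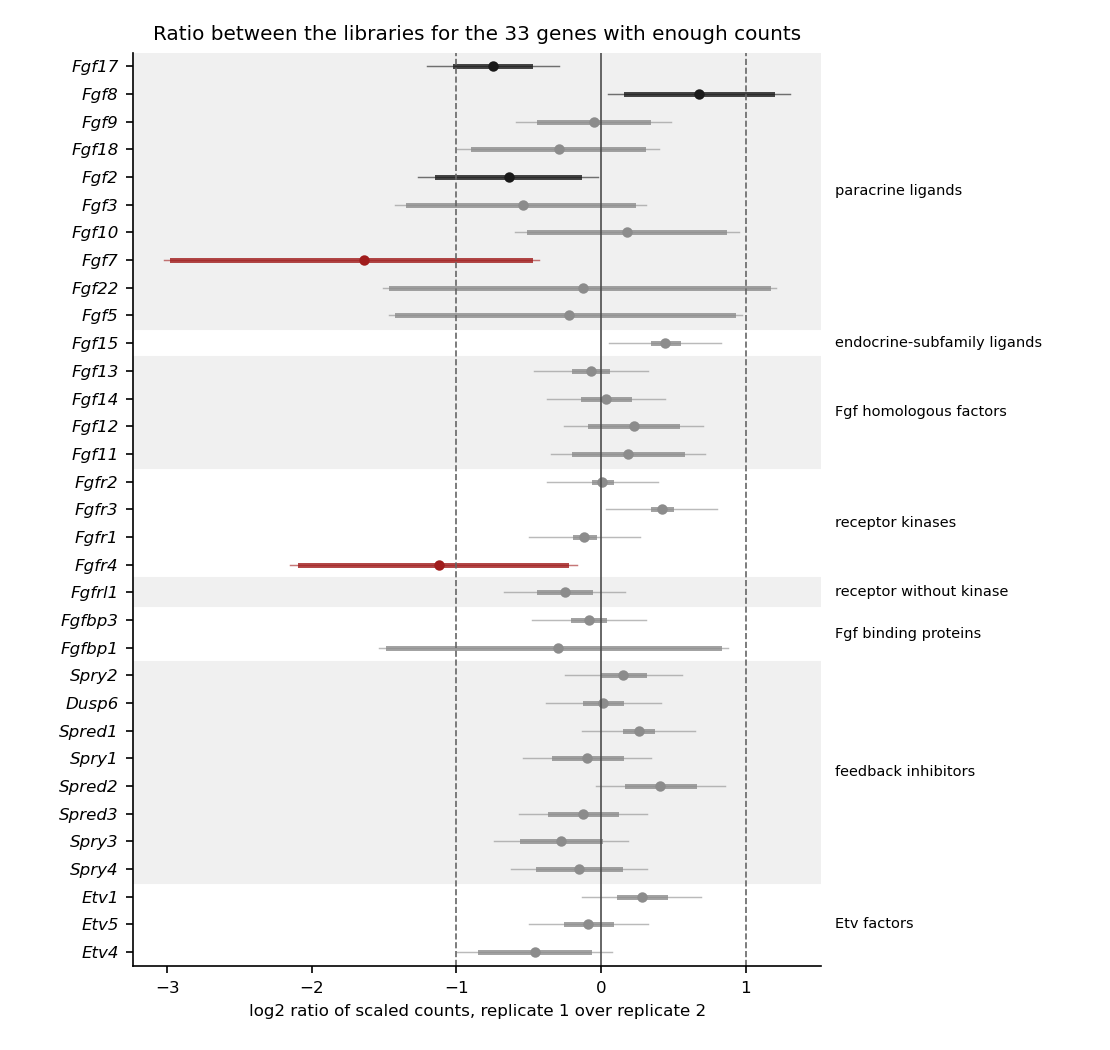
Log2 ratio of scaled counts, replicate 1 over replicate 2, for the 33 genes that reached 10 counts in either library; thick bars are exact 95% counting intervals, thin lines the same intervals widened by the common dispersion, and dashed lines mark 2-fold. Fgf7 and Fgfr4 (red) lie beyond 2-fold with wide intervals, Fgf8, Fgf17 and Fgf2 (black) beyond 1.5-fold, and the feedback inhibitors lie between -0.28 and 0.41.

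Among the receptors, Fgfr2 (ENSMUSG00000030849.18, minus strand of chromosome 7) had 75.5 TPM in replicate 1 and 75.6 TPM in replicate 2, from 3995 and 5108 counts. The libraries differed by less than counting error under TMM scaling, with a log2 ratio of 0.01 (95% interval -0.05 to 0.07), but under ERCC scaling the ratio was -0.26 (-0.32 to -0.20). Fgfr3 (ENSMUSG00000054252.18, chr5:33721674-33737068, plus strand) had 67.5 TPM in replicate 1 and 51.9 TPM in replicate 2. Its log2 ratio was 0.42 (0.36 to 0.48), so replicate 1 was higher beyond counting error, although the pools were less than 1.5-fold apart. Fgfr1 (ENSMUSG00000031565.18, chr8:25513654-25575718, plus strand) had 48.3 TPM in replicate 1 and 53.5 TPM in replicate 2, with a log2 ratio of -0.11 (-0.18 to -0.05). By gene total Fgfr2 thus took 40.5% ± 1.57 of the receptor kinase TPM, Fgfr3 31.9% ± 4.70 and Fgfr1 27.3% ± 3.02. These totals are not limited to transcripts that encode a whole receptor. That of Fgfr2 takes in retained-intron transcripts, at 16.9 TPM in replicate 1 and 15.4 TPM in replicate 2. It also takes in Fgfr2-217, with 546 coding bases, at 17.4 and 18.3 TPM. Fgfr4, a receptor best known from muscle and liver, had 0.28 TPM in replicate 1 and 0.55 TPM in replicate 2, from 15 and 42 counts. Its log2 ratio of -1.12 (-2.08 to -0.24) placed it in the pair of genes beyond 2-fold, and the low counts made its interval wide. Fgfrl1, a receptor with no kinase domain that binds ligands and heparan sulfate, had 12.9 TPM in replicate 1 and 15.3 TPM in replicate 2. Its main transcripts were Fgfrl1-201, with 55.9% of the gene in replicate 1 and 59.6% in replicate 2, Fgfrl1-202 with 24.5% and 23.2%, and Fgfrl1-204 with 13.8% and 13.9%. Of Fgfr4 the transcript Fgfr4-201 took 88.6% in replicate 1 and 100% in replicate 2, and the retained-intron transcript Fgfr4-202 took 11.4% and 0%.

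The third immunoglobulin loop of Fgfr1, Fgfr2 and Fgfr3 is encoded in part by 1 of 2 alternative exons, IIIb or IIIc, and the choice sets which ligands the receptor binds. In many tissues epithelia use IIIb and mesenchyme uses IIIc, and the IIIb form of Fgfr2 is the receptor for Fgf7 and Fgf10. Coding IIIb transcripts of Fgfr2 had a level in these libraries, whereas those of Fgfr3 were at 0 with annotation M21. For this reason the IIIb exons of both genes are shown. They were read 5′ to 3′ from the GENCODE M21 transcripts, and capitals mark the bases the same in both.
Fgfr2 IIIb: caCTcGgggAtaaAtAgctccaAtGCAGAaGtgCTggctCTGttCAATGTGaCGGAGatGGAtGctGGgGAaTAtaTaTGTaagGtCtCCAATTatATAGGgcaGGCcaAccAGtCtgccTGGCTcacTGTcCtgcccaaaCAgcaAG
Fgfr3 IIIb: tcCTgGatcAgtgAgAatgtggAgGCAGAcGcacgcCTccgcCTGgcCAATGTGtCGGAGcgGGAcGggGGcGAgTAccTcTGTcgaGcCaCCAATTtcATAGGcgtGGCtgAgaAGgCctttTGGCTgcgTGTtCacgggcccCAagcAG
The Fgfr2 exon lies at chr7:130199758-130199905 (minus strand, 148 bases) and the Fgfr3 exon at chr5:33731281-33731431 (plus strand, 151 bases), and both are coding. They share 77 bases, an identity of 51.0% over the alignment.

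Transcripts were sorted by their coding exons, so those without coding bases, such as retained-intron transcripts, were counted as holding neither exon. Sorted in this way, transcripts of Fgfr1 and Fgfr3 with 1 of the exons were IIIc, and those of Fgfr2 were mixed. Transcripts of Fgfr1 with exactly 1 of the exons had 37.6 TPM in replicate 1 and 43.1 TPM in replicate 2, all of it IIIc, and its 2 IIIb transcripts had 0 TPM in both. One further Fgfr1 transcript, Fgfr1-208, holds both exons, is annotated as a target of nonsense-mediated decay, and had 2.98 TPM in replicate 1 and 2.49 TPM in replicate 2. Fgfr3 had 54.4 TPM of IIIc transcripts in replicate 1 and 41.8 TPM in replicate 2, and its 4 IIIb transcripts were at 0; with annotation M4 they had 0.16 TPM in replicate 1 and 0 in replicate 2. Fgfr2 had 30.02 TPM of IIIc transcripts in replicate 1 and 30.03 TPM in replicate 2, and 11.2 TPM of IIIb transcripts in replicate 1 and 11.9 TPM in replicate 2. The IIIc share of Fgfr2 was therefore 72.8% in replicate 1 and 71.6% in replicate 2 (72.2% ± 0.818). It was 80.6% with the older M4 annotation, which moved the share by more than the replicates differed. Most of the IIIb level came from Fgfr2-211, with 8.48 TPM in replicate 1 and 9.60 TPM in replicate 2. Fgfr2-211 also holds 79 bases outside the IIIb exon that no IIIc transcript has, and whether reads on the exon or on those bases set its level was not tested. The surface epithelium markers, of which 4 of 5 passed 1 TPM, summed to 17.4 TPM in replicate 1 and 20.3 TPM in replicate 2, with Krt8 the highest at 5.63 TPM on average. Their part in the IIIb level was not tested.

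**Figure D3:**
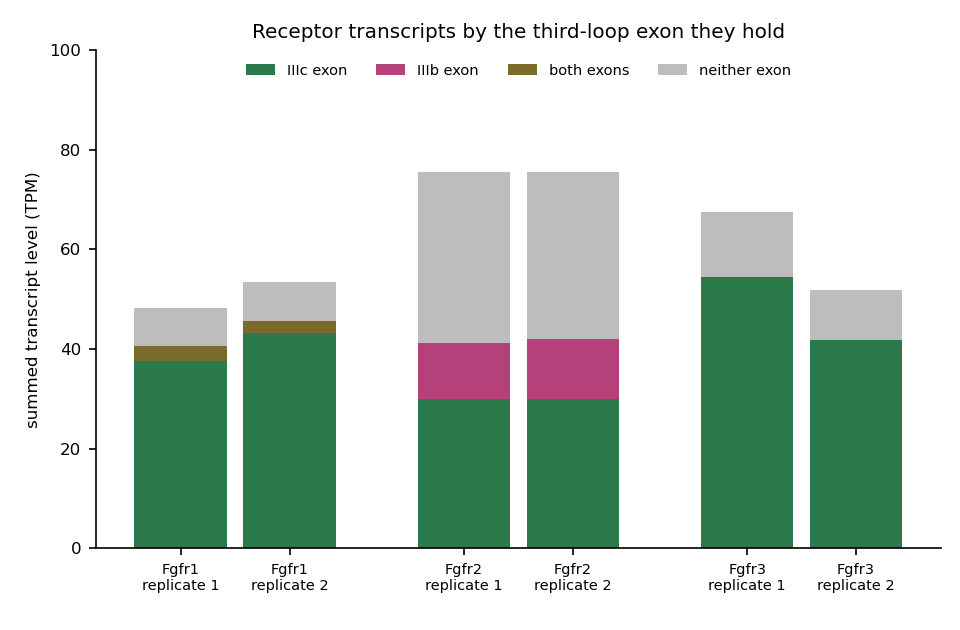
Summed transcript level in TPM of Fgfr1, Fgfr2 and Fgfr3 in each library, divided by the third-loop exon the transcripts hold. Coding transcripts with IIIb and not IIIc appear in Fgfr2 alone, at 11.2 TPM in replicate 1 and 11.9 TPM in replicate 2. Transcripts with neither exon make up a large part of the Fgfr2 bar. That class takes in every transcript without coding bases, whatever exons it holds.

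Transcripts with neither third-loop exon in a coding sequence took 45.4% of Fgfr2 in replicate 1 and 44.6% in replicate 2. The largest, Fgfr2-217, had 17.4 TPM in replicate 1 and 18.3 TPM in replicate 2. It starts in exons of Ctbp2, a transcriptional corepressor gene, on the same strand, shares 314 of its 2425 bases with that gene and spans 2961 kb of the genome. Without it Fgfr2 had 58.2 TPM in replicate 1 and 57.3 TPM in replicate 2, and Fgfr2 was then below Fgfr3 and Fgf15 in replicate 1. The retained-intron transcript Fgfr2-221 had 9.78 TPM in replicate 1 and 8.70 TPM in replicate 2. The leading full-length transcripts were Fgfr2-207 (IIIc, 17.8 TPM in replicate 1 and 16.3 TPM in replicate 2) and Fgfr2-215 (IIIc, 12.2 and 13.5 TPM in the same order). In Fgfr1 the leading transcript was Fgfr1-202, with 58.5% of the gene in replicate 1 and 49.5% in replicate 2. Fgfr1-201 took 16.1% in replicate 1 and 17.0% in replicate 2, Fgfr1-203 3.22% and 13.8%, and the retained-intron transcript Fgfr1-206 12.2% and 10.2%. In Fgfr3 the transcript Fgfr3-201 took 34.2% in replicate 1 and 21.7% in replicate 2, Fgfr3-215 24.7% and 30.2%, and Fgfr3-209 14.8% and 21.6%. The Fgfr3 transcripts differ by few bases, and the deposited intervals of Fgfr3-201, 14.7 to 27.2 TPM in replicate 1 and 4.55 to 15.8 TPM in replicate 2, overlap.

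Other splice choices in these receptors were also mixed. The exon of the first immunoglobulin loop, which is known to restrain ligand binding, was in 95.9% of full-length Fgfr1 TPM in replicate 1 and 82.9% in replicate 2. In Fgfr2 the shares were 29.7% and 32.2% in the same order. For Fgfr3 the share could not vary, since all 7 full-length transcripts counted hold that exon. A donor site that adds 6 bases to an Fgfr1 exon upstream of the third loop was used by 24.8% of TPM in replicate 1 and 38.2% in replicate 2. In Fgfr2 a donor that adds 6 bases just after the membrane-spanning segment, near the stretch that binds Frs2, was used by 56.9% in replicate 1 and 61.2% in replicate 2. An acceptor that adds 3 bases to an Fgfr3 exon was used by 18.3% in replicate 1 and 26.8% in replicate 2. All 3 short insertions, chosen after their values were seen, thus had a higher share in replicate 2. The Fgfr1 differences, in the insertion and in the first-loop exon, rest largely on Fgfr1-203. Its deposited intervals, 0.0519 to 3.78 TPM in replicate 1 and 3.67 to 9.74 TPM in replicate 2, overlap. So do those of Fgfr3-209, which holds the 3 added bases, with 4.52 to 13.9 TPM in replicate 1 and 6.80 to 14.3 TPM in replicate 2. The files give no counting error for such shares, which rest on how the quantification divided reads among overlapping transcripts.

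Of the ligands with a known site in the midbrain or at the isthmus, Fgf15 was by far the most abundant, Fgf17 followed, and Fgf8 and Fgf18 were low. Fgf15 (ENSMUSG00000031073.6, chr7:144896531-144900953, plus strand), the mouse counterpart of human FGF19 and a gene of the embryonic brain as well as of the gut, had 72.6 TPM in replicate 1 and 54.8 TPM in replicate 2, from 2243 and 2121 counts. Its log2 ratio was 0.44 (0.36 to 0.53), higher in replicate 1 beyond counting error and below 1.5-fold. Fgf15 alone made up 79.1% of all secreted ligand TPM in replicate 1 and 69.3% in replicate 2. An antisense gene, Gm26793, shares 761 bases or 24.9% of the Fgf15 exon bases and had 313 and 275 counts, and since the sources used here do not give the strand setting, reads on the shared bases cannot be assigned with certainty. The protein-coding transcripts of Fgf15 had 64.1 TPM in replicate 1 and 46.5 TPM in replicate 2. They make up 88.3% of the gene in replicate 1 and 84.9% in replicate 2, so they give no separate check of the difference between the pools.

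Fgf17 (ENSMUSG00000022101.6, chr14:70636203-70642268, minus strand), a close relative of Fgf8 with a broader domain around the isthmus, had 6.58 TPM in replicate 1 and 10.8 TPM in replicate 2, from 184 and 397 counts. Its log2 ratio was -0.75 (-1.01 to -0.49), the most precisely measured of the 5 ratios beyond 1.5-fold. Fgf8 (ENSMUSG00000025219.13, chr19:45736798-45742915, minus strand) went the other way, with 4.34 TPM in replicate 1 and 3.36 TPM in replicate 2 from 77 and 62 counts. Its log2 ratio was 0.68 (0.17 to 1.18), and under ERCC scaling 0.41 with an interval of -0.10 to 0.91 that includes equality. The ratio rests on counts, and the levels in TPM lay closer together. In replicate 2, 14.4 counts on the 630-base transcript Fgf8-203 gave 1.15 TPM, and that transcript was at 0 in replicate 1. Fgf18 (chr11:33117430-33147400, minus strand) had 2.30 TPM in replicate 1 and 2.84 TPM in replicate 2, and its log2 ratio of -0.29 (-0.88 to 0.29) lay within counting error. The isthmus markers were split in the same way, so they give no single direction: En1 was 5.60 TPM in replicate 1 and 8.06 TPM in replicate 2, and Cnpy1 73.9 and 116 TPM, whereas Wnt1 was 10.0 TPM in replicate 1 and 6.81 TPM in replicate 2. Forebrain markers had an interval above equality for 6 of 8 and below it for 2, with a median log2 ratio of 0.39. The part of these regional differences in the ratios of Fgf8, Fgf15 and Fgf17 was not tested.

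Fgf8 is spliced into forms that differ before the shared core of the protein. An exon on chromosome 19 can begin at either of a pair of acceptor sites, and the upstream one adds 33 bases, as in the form Fgf8b, known for its strong activity on the midbrain. The start of this exon, at chr19:45741614-45741679 (coding, minus strand), is shown with the added bases in capitals, since they divide the Fgf8 transcripts.
Fgf8 exon: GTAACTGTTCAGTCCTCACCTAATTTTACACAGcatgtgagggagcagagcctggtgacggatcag
Transcripts with the added bases had 3.06 TPM in replicate 1 and 2.07 TPM in replicate 2, and those without had 1.28 and 1.30 TPM. The longer form was thus 70.5% of Fgf8 in replicate 1 and 61.4% in replicate 2 (66.0% ± 6.42). Among the long forms Fgf8-206 led in replicate 1 with 2.67 TPM and had 0.69 TPM in replicate 2, while Fgf8-203 had 0 TPM in replicate 1 and 1.15 TPM in replicate 2. With 77 and 62 counts over the whole gene, the split among single transcripts is uncertain.

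The other secreted ligands were low or absent. Fgf9, a ligand made by neurons and many embryonic tissues, was the only one of them to pass 1 TPM, with 2.58 TPM in replicate 1 and 3.08 TPM in replicate 2. Fgf2 had 0.98 TPM in replicate 1 and 0.92 TPM in replicate 2, yet 54 and 108 counts, for a log2 ratio of -0.64 (-1.14 to -0.15). The level and the count disagree because 1.48 counts on the 257-base transcript Fgf2-207 gave 0.50 TPM in replicate 1. Nearly all other reads fell on Fgf2-208, a transcript of 5973 bases with 52.4 counts in replicate 1 and 104 in replicate 2. Fgf2-208 is missing from the older M4 annotation, in which Fgf2 had 2 and 10 counts and an interval that includes equality, and Fgf2 also shares 640 exon bases with Nudt6 on the opposite strand. Fgf3 (0.56 and 0.83 TPM in replicates 1 and 2), Fgf10 (0.49 and 0.44), Fgf22 (0.42 and 0.38), Fgf5 (0.42 and 0.32) and Fgf1 (0.16 and 0.47) lay below 1 TPM in both libraries. Fgf22, which overlaps Rnf126 on the opposite strand, had 10 counts in replicate 1 and 14 in replicate 2 with M21 but 1 and 3 with M4. Fgf7, a mesenchymal ligand of the Fgfr2 IIIb receptor, had 0.26 TPM in replicate 1 and 0.66 TPM in replicate 2, from 8 and 32 counts. Its log2 ratio of -1.64 (-2.97 to -0.49) was the largest in size among the 33. Mesenchyme markers were lower in replicate 1 beyond counting error for 7 of 8, with a median log2 ratio of -0.37, and all 4 cartilage markers were lower too, with Matn1 at 0 TPM in replicate 1 and 0.69 TPM in replicate 2. Their part in the Fgf7 ratio was not tested.

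Fgf16 and Fgf23 had at most 2 counts in a library, and Fgf20 had 0 in replicate 1 and 1 in replicate 2. Fgf4, Fgf6 and Fgf21 had no count in either library. A count of 0 still allows up to 3 counts, which is 0.0996 TPM in replicate 1 and 0.0789 TPM in replicate 2 for Fgf4, and 0.189 and 0.149 TPM for the shorter Fgf21. Fgf3, Fgf4 and Fgf15 lie within 62.9 kb of chromosome 7 on the same strand. Of these neighbours Fgf15 was at 63.7 TPM and Fgf3 at 0.70 TPM on average, and Fgf4, between them, was at 0. The endocrine ligands need Klotho co-receptors to act at a distance, and of these Klb had no count in either library and Kl had 0.42 TPM in replicate 1 and 0.50 TPM in replicate 2. Among the binding proteins, which carry FGF ligands away from heparan sulfate, Fgfbp3 had 39.5 TPM in replicate 1 and 42.7 TPM in replicate 2. Fgfbp1 had 0.61 and 0.76 TPM, on 12 and 19 counts.

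The 4 homologous factors are not secreted and do not act through the receptors; they stay inside the cell, where they bind voltage-gated sodium channels of neurons. All 4 were detected, and every interval of their ratios included equality under TMM scaling. Under ERCC scaling those of Fgf13, -0.34 (-0.45 to -0.23), and Fgf14, -0.23 (-0.39 to -0.07), lay below it. Fgf13 (chrX:59062145-59568071, minus strand) had 31.5 TPM in replicate 1 and 33.6 TPM in replicate 2, which was 67.0% of the summed level of the 4 in replicate 1 and 68.4% in replicate 2. Fgf14 had 8.85 and 8.86 TPM, Fgf12 4.40 and 4.52 TPM, and Fgf11 2.23 and 2.14 TPM, each in replicate 1 and replicate 2. The 3 transcripts Fgf13-201, Fgf13-202 and Fgf13-203, with different first exons, shared most of Fgf13. Fgf13-201 had 12.01 TPM in replicate 1 and 12.5 TPM in replicate 2, Fgf13-202 had 8.37 and 8.83 TPM, and Fgf13-203 had 5.09 and 5.95 TPM. Of Fgf12, the long transcript Fgf12-201 had 1.69 TPM in replicate 1 and 1.49 TPM in replicate 2, and the shorter Fgf12-205 had 2.21 and 2.83 TPM. Fgf12-205 is missing from M4, with which Fgf12 averaged 2.04 TPM in place of 4.46 TPM. The 4 sodium channel genes of neurons analysed here, Scn1a, Scn2a, Scn3a and Scn8a, were all detected. Scn3a, a channel of embryonic neurons, was the highest with 36.8 TPM in replicate 1 and 35.0 TPM in replicate 2. Scn1a was the lowest, with 2.79 TPM in replicate 1 and 3.26 TPM in replicate 2. None of the 4 was past 1.5-fold, a limit that 7.19% of all genes tested passed.

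All 8 feedback inhibitors were detected, at 2.20 to 19.1 TPM on average, and summed to 76.0 TPM in replicate 1 and 72.5 TPM in replicate 2. Spry proteins block the path between receptor and Ras, Spred proteins bring the Ras inhibitor neurofibromin to the membrane, and Dusp6 removes phosphate from ERK. Spry2 (chr14:105891947-105896819, minus strand) had 19.9 TPM in replicate 1 and 18.2 TPM in replicate 2, and Spry1 (chr3:37639947-37644598, plus strand) had 6.05 and 6.54 TPM. Their log2 ratios were 0.15 (0.01 to 0.30) and -0.09 (-0.33 to 0.14), and that of Spry2 turned to -0.11 under ERCC scaling. Spry3, whose gene in mm10 lies on the unplaced scaffold GL456233.1, had 2.44 TPM in replicate 1 and 3.01 TPM in replicate 2, and Spry4 had 2.06 and 2.33 TPM. Spred1 had 16.6 TPM in replicate 1 and 13.95 TPM in replicate 2, Spred2 5.70 and 4.41 TPM, and Spred3 4.64 and 5.35 TPM. Spred2 had the largest ratio of the 8, a log2 ratio of 0.41 (0.18 to 0.64), which the widened interval did not set apart from equality. Dusp6 (chr10:99263231-99267489, plus strand) had 18.6 TPM in replicate 1 and 18.7 TPM in replicate 2, from 918 and 1169 counts, and its log2 ratio was 0.01 (-0.11 to 0.14). Dusp6, often used as a readout of FGF activity, thus differed by less than counting error under TMM scaling, but under ERCC scaling its log2 ratio was -0.25 (-0.38 to -0.13), lower in replicate 1. With 1 library per pool, a relation between ligands and inhibitors was not tested.

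The Etv factors, transcription factors of the ETS family that FGF signalling is known to raise, were all detected. Etv1 had 12.2 TPM in replicate 1 and 10.6 TPM in replicate 2, Etv5 (chr16:22381309-22439719, minus strand) 8.24 and 9.23 TPM, and Etv4 (chr11:101769742-101785371, minus strand) 3.14 and 3.36 TPM. The log2 ratio of Etv4 was -0.46 (-0.84 to -0.08), higher in replicate 2 beyond counting error, and that of Etv5 was -0.09 (-0.24 to 0.07). That of Etv1 was 0.28 (0.12 to 0.44) and fell to 0.01 under ERCC scaling. The Etv4 ratio rests on counts, 94 in replicate 1 and 166 in replicate 2, and its levels in TPM lay closer together. None of the 3 stood apart once the interval was widened.

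Most genes on the lists drawn from the rest of the pathway were detected. All 19 heparan sulfate proteoglycans and enzymes and all 11 adaptors at the receptor passed 1 TPM in both libraries. So did all 11 genes from Ras to ERK and all 10 further modulators, against 59.4% of all protein-coding genes. The lists hold chosen genes, not every member of each family, and were chosen with earlier results of these data known. Their full detection therefore cannot be weighed against the share of all protein-coding genes. None of these pathway genes was 2-fold apart, and each had 50 counts or more in a library. Of all 15158 genes with 50 counts or more, 77 were 2-fold higher in replicate 1 and 131 in replicate 2 by the same rule, so none is near that share. At 1.5-fold the numbers were 229 and 479. The Ras to ERK genes had the highest median, 92.0 TPM, from Ksr1, a scaffold, at 2.85 TPM in replicate 1 and 3.39 TPM in replicate 2, to the kinase Map2k2 at 187 and 194 TPM. The adaptors ran from Sos1, an exchange factor for Ras, at 6.08 TPM in replicate 1 and 5.71 TPM in replicate 2, to Grb2 at 114 and 107 TPM. The heparan sulfate list ran from the glypican Gpc5 at 1.07 TPM in replicate 1 and 1.17 TPM in replicate 2 to Gpc3 at 115 and 161 TPM. In that list Sulf1, which removes sulfate groups from heparan sulfate, was the only gene past 1.5-fold, with 33.3 TPM in replicate 1 and 67.3 TPM in replicate 2 and a log2 ratio of -0.87 (-0.94 to -0.81). Besides the mesenchyme markers, 3 of 5 floor plate markers were lower in replicate 1 beyond counting error, and that list summed to 38.4 TPM in replicate 1 and 70.3 TPM in replicate 2. The part of either list in the Sulf1 ratio was not tested. Among the modulators Flrt3, a membrane protein that binds FGF receptors, was the highest with 64.8 TPM in replicate 1 and 51.2 TPM in replicate 2. Dusp5, a nuclear phosphatase of ERK, was the lowest with 2.05 TPM in replicate 1 and 1.35 TPM in replicate 2, and its log2 ratio of 0.64 (0.19 to 1.10) was the only one there past 1.5-fold.

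**Figure D4:**
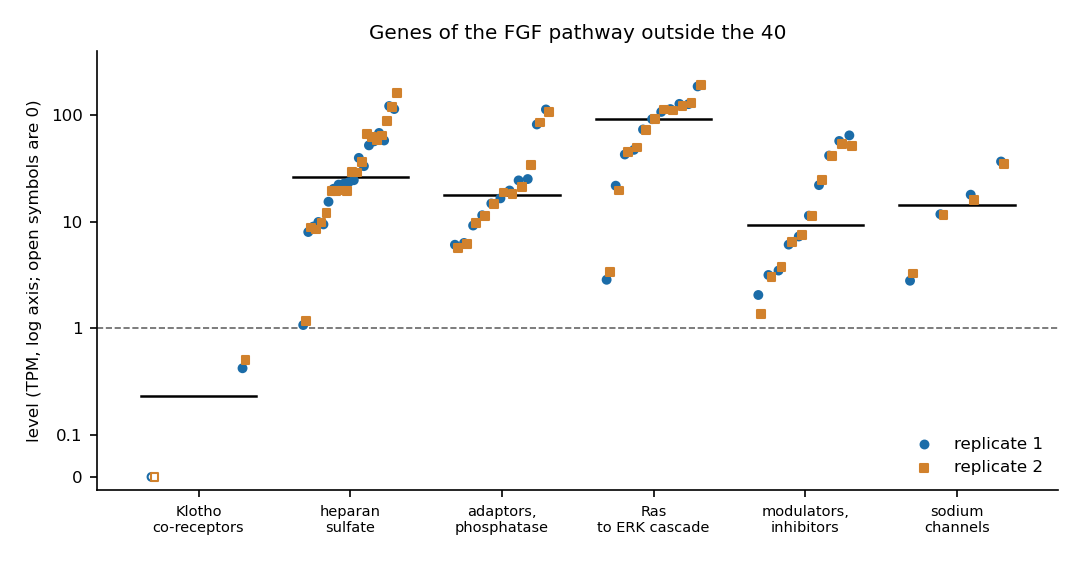
Level in TPM on a log axis of the pathway genes outside the 40, by list, with replicate 1 as blue circles and replicate 2 as orange squares, the black bar the median of each list, the dashed line 1 TPM and open symbols a level of 0. The Ras to ERK list is centred on 92.0 TPM, and both Klotho co-receptors lie below 1 TPM.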

How the data were processed

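Polyadenylated RNA of 2 midbrain pools was measured, 1 library per pool. The authors deposited, per library, tables of genes and of transcripts, each against annotation M4 and against M21 (assembly mm10), per the accompanying manifests. Per the file headers the tables hold expected counts (estimated reads, not scaled), TPM with the authors' 95% interval bounds, and each transcript's percent of its gene. Column names are those of RSEM; the sources used here do not give the aligner, the quantification tool or the strand setting. Symbols, exons and sequences came from GENCODE M21.

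M21 was the main quantification and M4 an alternative. Spike-ins and other entries that name no gene, 4.02% of counts in replicate 1 and 3.38% in replicate 2, stayed out of library sizes, for which expected counts were rounded to whole numbers. TMM factors and the common dispersion (intercept-only design) came from edgeR 4.0.16, and alternative size factors from DESeq2 1.42.0, in R 4.3.3. Ratios, exact conditional binomial (Clopper-Pearson) 95% intervals and shares were computed in Python 3.11.15 with scipy 1.17.1, with a check of the ratios on simulated data. The widened interval adds the common dispersion to each side in quadrature. Exon identity was counted on a MAFFT 7.526 alignment over all aligned columns. A ratio required 10 counts in either library, and 1 TPM in both libraries to count as detected. The design, 1 group of 2, allows no test between conditions. The replicates are separate pools, per the labels.

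The 40 genes, the pathway and marker lists and the rules were chosen with earlier results of these data known. Every gene at 1 TPM in either library is named with both levels, receptor transcripts are named from 10% of their gene, and pathway genes where highest, lowest or past 1.5-fold. The ligand and homologous factor transcripts, the short insertions and the overlapping genes were chosen after their values were seen. One gene of the sodium channel list and some exon sequences are not reported here.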

Additional observations from a re-analysis of the deposited data

How the results depend on the processing

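Detection covered 25 of the 40 genes at 1 TPM, 28 at 0.5 TPM, 24 with M4 and 15 at 5 TPM. The median level of 3.04 TPM was 3.33 TPM when rescaled without spike-ins. Genes 2-fold apart numbered 2, but 0 with a minimum of 50 counts, 3 with ERCC scaling and 5 at a 1.5-fold limit. For the ERCC setting no share over all genes was computed. Fgf7 and Fgfr4 rest on fewer than 50 counts. The median log2 ratio of -0.09 became -0.36 with ERCC scaling, which moved 18 single ratios by more than their counting interval; total-count and DESeq2 scaling moved none. With M4 the IIIc share of Fgfr2 was 80.6%, that of Fgfr3 99.9%, and the log2 ratio of Fgf2 -1.96 (-5.19 to 0.27, from 2 and 10 counts), an interval that includes equality; the cause of the Fgfr2 shift was not tested. Leaving out replicate 1 or replicate 2 left 25 genes detected, the median level between 2.86 and 3.22 TPM and the IIIc share of Fgfr2 between 71.6% and 72.8%. Fgfr2 without Fgfr2-217, a choice made after seeing the data, averaged 57.7 TPM. No paired analysis was possible because both libraries belong to 1 group. Counting error limits the ratios of all genes under about 50 counts, among them every ligand below 1 TPM other than Fgf2.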
